A study of Mus musculus with 48 samples.

Results

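Private FLAG peaks of the Q418R transgene are the intervals at which tagged CTCF carrying Q418R, a glutamine-to-arginine substitution in the DNA-binding domain, was called bound while no CTCF antibody list of wild-type (WT) cells and no FLAG list of another transgene had a peak. The members were thus chosen by measured values, the FLAG and CTCF antibody peak calls themselves. Of 30332 distinct Q418R FLAG peaks, 8784 met this rule, which is 29.0% (95% Wilson interval over peaks 28.5 to 29.5%). All values come from mouse E14Tg2a embryonic stem cells of strain 129/Ola, in which endogenous CTCF carries an auxin-inducible degron and each of 10 derived lines holds 1 doxycycline-inducible Ctcf transgene, either WT or with one of the substitutions H455R, R448Q, Q418R, R377H, R377C, K365T, S354F, R342C and R339Q. FLAG and SMC3, a cohesin subunit, were profiled by ChIPmentation after 2 days in 500 µM indole-3-acetic acid, which removes endogenous CTCF, and 1 µg/ml doxycycline, which induces the transgene. The CTCF antibody was used only in the WT transgene line, untreated and treated. Each genotype is therefore 1 engineered line, and each peak list pools 2 replicates, so no spread between replicates can be given. FLAG in untreated cells and IgG were not analysed here.

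CTCF binds DNA through an array of zinc fingers, several of which read a long motif with a conserved core. Cohesin extrudes chromatin loops and is stopped by bound CTCF in one orientation, so that SMC3 peaks commonly lie at CTCF sites and at the bases of loops. In embryonic stem cells CTCF is needed for this positioning of cohesin and for the insulation of neighbouring chromatin domains.

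Of the 8784 private peaks, 185 (2.11%) touched a promoter window of RefSeq (GRCm38.p6, equivalent to mm10); these are the only windows for which sequence was used. The stretches at 5 genes are shown as examples of what lies under the peaks, each being the bases upstream of a transcription start that the peak covers, read 5′ to 3′ on the strand of the gene. Capitals mark a match to the conserved core of the CTCF motif, on either strand.
Btbd7: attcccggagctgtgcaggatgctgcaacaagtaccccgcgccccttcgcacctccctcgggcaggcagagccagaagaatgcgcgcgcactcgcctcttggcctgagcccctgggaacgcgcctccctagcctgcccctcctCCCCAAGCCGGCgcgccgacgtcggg
Arl4c: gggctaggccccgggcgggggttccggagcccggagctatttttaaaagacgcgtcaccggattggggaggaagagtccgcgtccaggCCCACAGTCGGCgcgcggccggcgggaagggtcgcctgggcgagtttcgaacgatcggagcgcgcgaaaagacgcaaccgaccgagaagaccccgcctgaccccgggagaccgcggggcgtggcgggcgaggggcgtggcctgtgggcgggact
Tusc1: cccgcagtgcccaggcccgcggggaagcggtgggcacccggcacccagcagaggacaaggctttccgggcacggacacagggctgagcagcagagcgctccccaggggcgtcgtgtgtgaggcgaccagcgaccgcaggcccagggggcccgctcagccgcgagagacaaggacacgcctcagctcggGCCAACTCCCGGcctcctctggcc
Sv2b: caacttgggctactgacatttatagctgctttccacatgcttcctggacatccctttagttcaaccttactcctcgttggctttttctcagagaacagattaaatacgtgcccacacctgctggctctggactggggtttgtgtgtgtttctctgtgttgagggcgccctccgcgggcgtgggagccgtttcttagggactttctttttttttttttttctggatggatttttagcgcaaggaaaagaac
Per1: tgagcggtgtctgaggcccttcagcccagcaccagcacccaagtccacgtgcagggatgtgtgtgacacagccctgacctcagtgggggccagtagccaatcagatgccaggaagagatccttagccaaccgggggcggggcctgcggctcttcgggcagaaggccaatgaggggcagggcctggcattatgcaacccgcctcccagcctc
Arl4c, which encodes a small ARF-like GTPase, has its stretch at chr1:88702200-88702441 on the minus strand. Btbd7, a BTB domain gene, has its stretch at chr12:102878524-102878692 and Tusc1 at chr4:93335550-93335761, both on the minus strand. Sv2b, which encodes a synaptic vesicle glycoprotein, was covered at chr7:75308387-75308636 on the minus strand, and Per1, a core circadian clock gene, at chr11:69098738-69098948 on the plus strand. Btbd7, Arl4c and Tusc1 had the highest FLAG values among the covered stretches with the core, and Sv2b and Per1 were among those without it. Most such stretches had no match: of 80 protein-coding genes with at least 100 bases upstream of a start covered, leaving out chromosomes 8 and 18, 7 had the core in the covered bases.

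In promoters, the core was most common at the CTCF sites that another transgene shared, and the 3 other classes of Q418R peak had it at lower shares. Among 166 promoter windows of which a private peak covered at least 100 bases, 23 held the CTCF core (13.9%, 95% Wilson interval 9.41 to 19.9%), against 8.61% of all 32851 windows of the same length. At Q418R peaks with both a CTCF antibody peak and a FLAG peak of another transgene, 248 of 664 windows held it (37.3%, 33.8 to 41.1%). The share was 10.9% (8.44 to 13.9%) at CTCF antibody sites without another transgene and 14.8% (5.92 to 32.5%, 27 windows) at the peaks outside CTCF that another transgene shared. The shorter letters AGGGGGC or AGATGGC or AGGTGGC or AGAGGGC, on either strand, stood in 24.1% of the private windows (18.2 to 31.1%), in 27.6% of all windows and in 58.1% of the windows at shared CTCF sites (54.3 to 61.8%). With the core and with the shorter letters, the intervals of private and of shared CTCF windows did not overlap. The rule removes CTCF antibody peaks from the private class, so this direction is not independent of the rule. The shorter letters stood in 37.0% (21.5 to 55.8%) of windows at the peaks outside CTCF that another transgene shared, an interval overlapping the private one. At CTCF antibody sites without another transgene the share was 37.3% (33.2 to 41.6%). Base composition differed as well: the median GC content was 58.5% in private windows, 60.7% at shared CTCF sites and 52.7% in all windows. Its part in these shares was not tested. A match is not a binding site, and the windows hold a small part of the private peaks.

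The Q418R list held the most private peaks of the 10 FLAG lists. R339Q had 2366 of 18808 (12.6%), R448Q 1826 of 19403 (9.41%), R377C 1542 of 30462 (5.06%), K365T 1175 of 13151 (8.93%) and R342C 1080 of 16687 (6.47%). H455R had 1059 of only 3855 (27.5%), R377H 794 of 16473 (4.82%), WT 691 of 15392 (4.49%) and S354F 436 of 24152 (1.81%). The R377C list is as long as that of Q418R and held far fewer private peaks, while H455R came close to Q418R in share. Q418R peaks outside the CTCF antibody lists were mostly private: 8784 were, and 1292 lay in another FLAG list too, so that 87.2% were private, against 84.5% in R339Q and 39.2% to 58.9% in the 8 other lists. A further 7776 Q418R peaks lay at a CTCF antibody peak without a FLAG peak of another transgene, and 12480 had both. Since the rule sets these counts, they are given as a description, without a test.

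**Figure D1:**
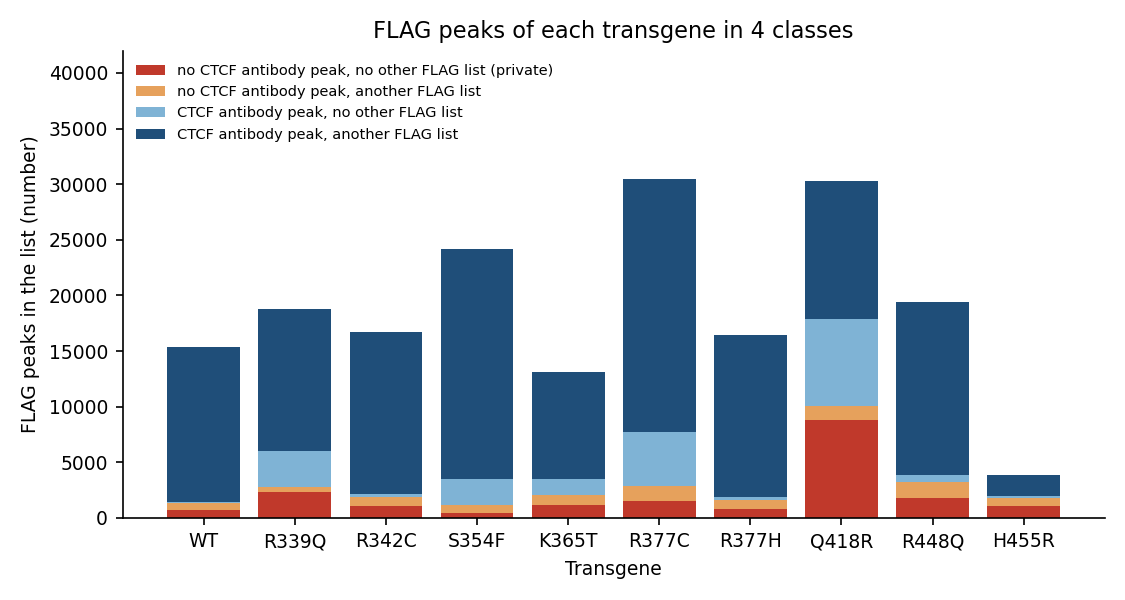
Number of FLAG peaks (vertical axis) for each of the 10 transgenes (horizontal axis), stacked by whether the peak overlaps a CTCF antibody peak of WT cells and a FLAG peak of another transgene; each bar is 1 pooled list. The private class, at the foot of each bar, holds 8784 peaks in Q418R and at most 2366 in any other list.

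Q418R peaks outside CTCF, private or shared, were narrow and of low value within their list. The deposited value, a score of the authors' peak caller whose measure is not named, had a median of 2.82 at private peaks, with quartiles 2.49 and 3.50 and a range from 1.27 to 15.7. The median was 2.60 at the peaks outside CTCF that another transgene shared, 3.90 at CTCF sites without another transgene and 4.33 at CTCF sites with one. Only 5.09% of private peaks were in the upper 25% of the Q418R list, 37.0% were in the lower 25%, and 30 exceeded a value of 10. Their median width was 174 bp (101 to 1309 bp), against 270 bp over the whole list. More than 1 summit was called in 1271 private peaks (14.5%), against 26.9% of all Q418R peaks, and the highest number was 5. At the peaks outside CTCF that another transgene shared, the median width was 178 bp and 19.0% had more than 1 summit. Of these shared peaks, 1.70% were in the upper 25% of the list and 52.9% in the lower 25%. All these values come from the list that chose the peaks.

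The edge of the rule lay among such weak peaks. Within 10 bp of a peak that would have excluded them lay 24 private peaks, which had a median value of 2.63, and 34 Q418R peaks were excluded by an overlap of under 10 bp, with a median value of 2.59. Among the latter were peaks nearest to Hk1 (1.95), Cox7a2l (2.28) and Myrip (2.87), each excluded by 2 bp. The nearest member inside lay near Ly6m, a Ly6 family gene, at chr15:74893803-74893911, with a value of 1.95 and directly abutting an excluding peak. Of all private peaks, 1051 (12%) lay within 500 bp of an excluding peak, and the median distance was 4630 bp. The median distance to the nearest CTCF antibody peak was 6020 bp. To the nearest other private peak the median was 56000 bp, with 1762 private peaks (20.1%) within 10 kb of another and 457 (5.20%) within 500 bp.

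Most private peaks had no SMC3 peak in any line. None of the 10 lists had one at 5949 of the 8784 (67.7%). SMC3 was called in 1 to 3 lists at 1796 (20.4%), in 4 to 9 lists at 940 (10.7%) and in all 10 at 99 (1.13%). In the Q418R line itself 612 private peaks overlapped an SMC3 peak (6.97%, 6.45 to 7.52%), where the share over all Q418R FLAG peaks was 39.6%. The corresponding shares of private peaks were 7.59% in the WT SMC3 list, 6.67% in R339Q, 13.6% in R342C, 6.16% in S354F, 11.0% in K365T, 9.67% in R377C, 14.9% in R377H, 20.3% in R448Q and 11.1% in H455R. Over all Q418R FLAG peaks those shares were 37.7% for WT, 34.1% for R339Q, 44.4% for R342C, 33.6% for S354F, 40.6% for K365T, 38.2% for R377C, 43.5% for R377H, 51.4% for R448Q and 35.7% for H455R. Every list therefore had SMC3 at private peaks less often than at Q418R peaks as a whole. The whole includes the peaks at CTCF sites, which the rule removes, so this direction is not independent of the rule. At CTCF sites that another transgene shared, Q418R SMC3 was present at 71.7%.

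Private peaks also had SMC3 less often than the Q418R peaks outside CTCF that another transgene shared. Averaged over the 10 SMC3 lists, the share was 10.8% at private and 27.6% at shared peaks. The difference was -16.8 percentage points (SD 5.17, n = 10 lists, range -24.6 to -7.74), lower in 10 of 10 lists, and the exact permutation test by sign flips gave a two-sided p = 0.00195, which 10 lists cannot go below. The 10 lists were all set against the same FLAG peaks and are not fully independent. The rule also parts these classes by the FLAG peaks of the other lines, from which all SMC3 lists but that of Q418R come. The direction is thus not independent of the rule, and no conclusion is drawn from the p-value.

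**Figure D2:**
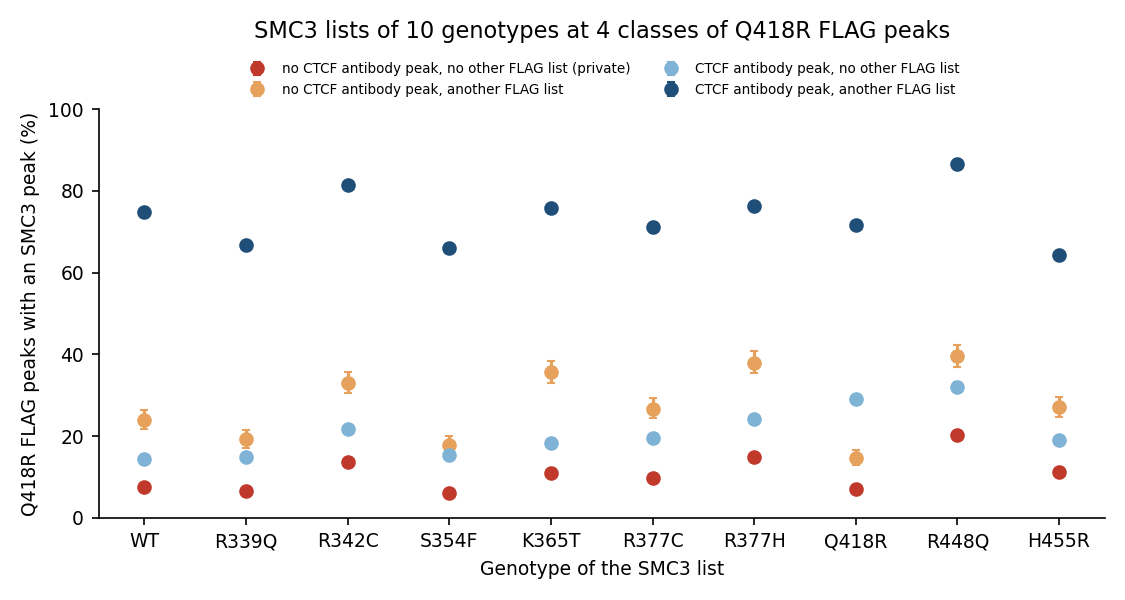
Share of Q418R FLAG peaks with an SMC3 peak (vertical axis, percent) in the SMC3 list of each genotype (horizontal axis), for 4 classes of Q418R FLAG peak; points are single pooled lists and bars are 95% Wilson intervals over peaks, hidden where smaller than the point. Private peaks have the lowest share in every list, from 6.16% to 20.3%.

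Over all private peaks, the SMC3 share of the Q418R line lay within the range of the other lines. Its 6.97% compared with a mean of 11.2% in the 9 other lists (SD 4.53, 6.16 to 20.3%), a difference of -4.25 points, and 7 of the 9 were higher (exact two-sided permutation p = 0.500, where 1 list against 9 cannot go below 0.100). The Q418R SMC3 list is the shortest, with 42030 peaks against 71962 to 153647 in the others, and covers 0.420% of the genome. It is also the one SMC3 list whose peak names carry the tag b3, where the others carry b1, b2 or both; the sources used here do not explain the tag, and in each comparison of Q418R SMC3 with the 9 other lists the tag and the genotype cannot be told apart. When each SMC3 list was cut to its strongest 42030 peaks, the difference turned to 1.62 points (p = 0.400, exact permutation). Divided by the percent of the genome each list covers, the share was highest in Q418R at 16.6, against 6.58 to 11.0 elsewhere. The direction of this comparison thus depended on how list length was treated.

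The comparison between lines changed along the FLAG value. In the 10% of private peaks with the lowest values (1.27 to 2.15), the Q418R SMC3 list had a peak at 12.6% (10.6 to 15.0%) and the 9 other lists at 24.8% on average, all 9 higher. The difference was -12.2 points (exact two-sided permutation p = 0.100). In the upper 10% (879 peaks, values 4.55 to 15.7), Q418R SMC3 was present at 165 (18.8%, 16.3 to 21.5%). The other lists had 34 (3.87%) in WT, 38 (4.32%) in R339Q, 54 (6.14%) in R342C, 29 (3.30%) in S354F, 50 (5.69%) in K365T, 48 (5.46%) in R377C, 70 (7.96%) in R377H, 90 (10.2%) in R448Q and 40 (4.55%) in H455R. Q418R was above all 9, whose mean was 5.73% (SD 2.19), by 13.0 points, with the tag b3 in Q418R alone. The rule keeps these peaks out of the FLAG lists of the 9 other lines, and the Q418R FLAG value ranked them. The comparison is thus not independent of how the peaks were chosen. No conclusion is drawn from its exact two-sided permutation p = 0.100, the smallest that 1 list against 9 can give. At 115 of the 879 (13.1%) SMC3 was called in the Q418R line and in no other. The division into 10 equal groups by value was chosen after the values were seen. Over the 8 groups in between, the Q418R share ran from 3.76% to 6.95%, and the mean of the 9 other lists from 6.58% to 16.9%. Counted from the lowest, all 9 were higher than Q418R in groups 2 to 6, 7 in group 7, 6 in group 8 and 3 in group 9.

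**Figure D3:**
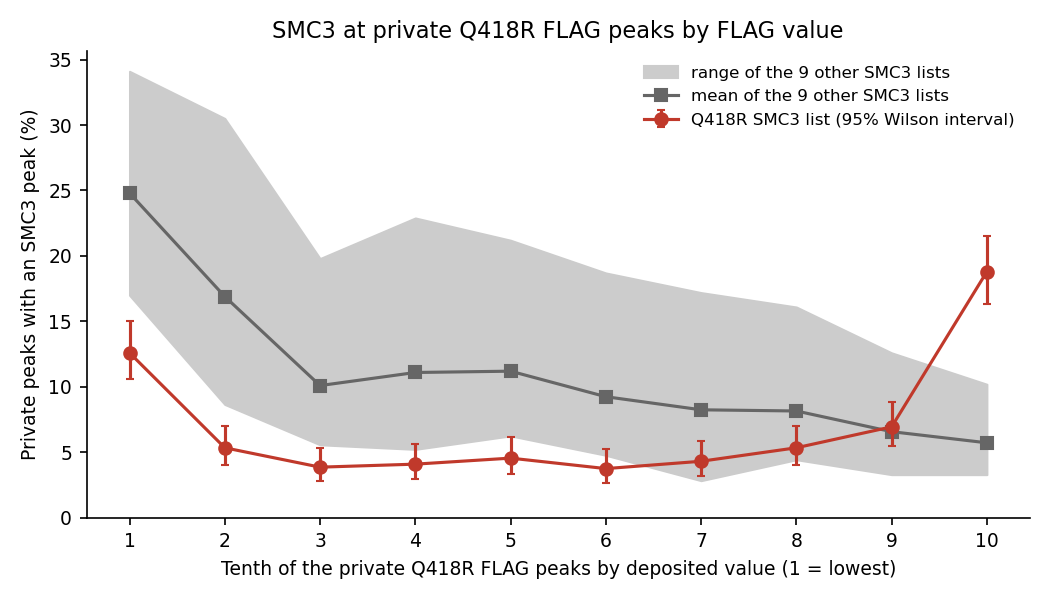
Share of private Q418R FLAG peaks with an SMC3 peak (vertical axis, percent) in 10 equal groups by deposited FLAG value (horizontal axis, 1 lowest); red points are the Q418R SMC3 list with 95% Wilson intervals over peaks, grey squares the mean and the grey band the range of the 9 other SMC3 lists. Q418R lies below the mean in the lowest group, at 12.6% against 24.8%, and above the whole band in the highest, at 18.8% against at most 10.2%.

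Seen from the SMC3 side, 5540 SMC3 peaks were called in the Q418R line alone, and 218 of them (3.94%) held a private Q418R FLAG peak. Among SMC3 peaks found in 1 line alone, the share was 0.264% to 0.773% in the 9 other lines (mean 0.482%, SD 0.162; difference 3.45 points, exact two-sided permutation p = 0.100, the smallest possible). For every line the FLAG peaks were the private ones of Q418R, which by rule lack the FLAG peaks of the other lines. The higher share in Q418R is thus not independent of the rule, and no conclusion is drawn from the p-value. The private FLAG peaks of the other lines were not set against their own SMC3 peaks in this way. Any Q418R FLAG peak lay in 31.1% of the SMC3 peaks seen in Q418R alone and in 1.03% to 2.25% of those seen in another line alone. Own SMC3 at private peaks was also seen in other lines. In the upper 10% of each line's private peaks, own SMC3 exceeded the mean of the other lists by 59.9 points in K365T, 13.0 in Q418R, 10.7 in R448Q, 5.35 in H455R, 3.06 in R377H, 1.61 in WT, 0.823 in R342C and 0.505 in S354F. Own SMC3 fell short of the mean of the other lists in R377C, at -1.22, and in R339Q, at -14.7. The excess in Q418R was 5.70 points above the mean of the 9 other lines, within their range (exact two-sided permutation p = 0.700).

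The 10 private peaks of highest value had SMC3 in the Q418R line or in none. The highest value, 15.7, was at chr4:32146851-32147619, a peak of 3 summits lying 90.8 kb from Bach2, a transcriptional repressor of lymphocytes. Its Q418R SMC3 value was 6.37, at percentile 89.7 of that list, and no other line had SMC3 there. The peak nearest to Nabp1, which encodes a single-stranded DNA binding protein, had a value of 15.4 at chr1:51523517-51524213 and an SMC3 value of 5.54 in Q418R alone. The peak nearest to Apol10b, an apolipoprotein L family gene, was the widest of all private peaks at 1309 bp and had 4 summits, a value of 15.4 and an SMC3 value of 4.86. Peaks nearest to Cartpt, a neuropeptide precursor gene (15.0), Ggh, a folate hydrolase gene (14.6), Pigm, a GPI anchor synthesis gene (13.9), Rell1 (13.9) and Spata13, a guanine nucleotide exchange factor gene (13.6), likewise had SMC3 in Q418R alone. The remaining 2 lay inside the spans of Zfp454, a zinc finger gene (15.4), and Ssbp3, a cofactor of LIM-domain transcription factors (13.5), and had SMC3 in no list. Of these 10, 8 thus had SMC3 in Q418R alone and 0 had it in WT. Among the 100 of highest value, 46 had Q418R SMC3, 33 had it in no other line, 3 had WT SMC3 and 43 had none. Over all private peaks, 6.97% had Q418R SMC3, 2.28% had it in no other line, 7.59% had WT SMC3 and 67.7% had none. Q418R SMC3 lay at 39.6% of all Q418R FLAG peaks. The peaks of highest value were ranked by the Q418R FLAG value, and the rule keeps them out of the other FLAG lists. Their SMC3 is thus not independent of how they were chosen.

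SMC3 peaks over private peaks were of middling strength. The 612 private peaks with Q418R SMC3 had a median SMC3 value of 3.38, equal to the median of the whole list, and the 165 of the upper 10% had 3.71, at percentile 63.1.

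At a few private peaks SMC3 was present in every line, WT included. The highest FLAG value among these was 10.7, at chr1:35874848-35875587, 193 kb from Hs6st1, a heparan sulfate sulfotransferase gene. Near Ywhaz, which encodes a 14-3-3 protein, the value was 6.34 at a peak 0.414 kb outside the gene. The peaks in Sik1, a salt-inducible kinase gene (5.47), Atp1b1, a sodium pump subunit gene (5.30), and Slc30a10, a manganese exporter gene (5.05), lay inside their spans. The peak at Arl4c, whose upstream stretch is shown above, had a value of 5.30. At these 6 sites the Q418R SMC3 values were 3.00 to 4.57. These sites carried cohesin in the WT line without a CTCF antibody peak there.

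Q418R peaks outside CTCF, private or shared, lay at gene ends less often than Q418R peaks as a whole. RefSeq spans carry no strand here, so a gene end is either end of a span. Within 1 kb of one lay 925 private peaks (10.5%, 9.91 to 11.2%), against 8.28% (6.90 to 9.91%) of the peaks outside CTCF that another transgene shared, 15.6% of all Q418R FLAG peaks and 20.8% of those at CTCF sites without another transgene. Another 52.1% lay inside a gene span, against 48.6% of all, and 37.3% lay outside genes. The highest value near a protein-coding gene end was 9.19, at chr17:86753308-86753807, 0.056 kb from Epas1, which encodes the hypoxia-inducible factor HIF-2α, with SMC3 only in R448Q. Then came Htra1, a secreted serine protease gene (9.0), Frrs1, a ferric reductase gene (8.72), Timm8a1, a mitochondrial import gene (8.36), Zkscan2, a zinc finger gene (7.95), and Nup50, a nuclear pore gene (7.17). Of these 6, only Htra1 and Zkscan2 had Q418R SMC3.

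Among 21627 protein-coding genes, 4355 (20.1%) had a private peak within 10 kb, and 8394 (38.8%) within 50 kb. Pluripotency genes had one in 4 of 20, namely Prdm14, Tfcp2l1, Tcl1 and Klf2, a share equal to that of all genes. The highest value was 4.25 inside Prdm14, a repressor of differentiation, where Q418R had no SMC3. Of 12 mesoderm and endoderm genes, 5 had one, Sox17, Gata4 and Gata6 among them, and of 12 neural lineage genes 4 had one, among them Map2 and Olig2. The peak 8.87 kb from Neurog1, a proneural factor gene, had a value of 6.47. Among 8 trophoblast genes only Hand1 had one. Hox genes, which pattern the body axis, had one in 10 of 39, from Hoxb1 and the Hoxc and Hoxd clusters, and the highest value was 4.22 at Hoxb1. Neighbouring Hox genes share peaks within this distance. The 10 of 57 clustered protocadherins were all Pcdha genes, whose overlapping spans held a single private peak.

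Of a list of 20 mostly long genes that mixes synaptic adhesion molecules such as Cntnap2 and Nlgn1 with other genes such as Dlg2, a postsynaptic scaffold gene, and Macrod2, an ADP-ribosylhydrolase gene, 13 had one. The highest value was 7.48, inside Macrod2, but their median span was 1160 kb against 17.3 kb for all genes, and they held 1.16 private peaks per Mb of span against 4.27 over all genes. Cadherins had one in 9 of 23 (39.1%), at 5.25 per Mb and with a median span of 148 kb, where the share over all protein-coding genes was 20.1%. Of the 33 private peaks in cadherin spans, 14 lay in Cdh13 and 9 in Cdh4, so that 2 genes held most of them. Olfactory receptor genes, short and mostly silent outside the nose, had one in 37 of 1106. Zinc finger genes had one in 76 of 397 (19.1%) and solute carriers in 82 of 375 (21.9%), both near the share over all genes. The solute carriers were led by Slc2a12, a glucose transporter gene (11.8). Of 14 genes of cohesin and its regulators, 5 had one (Nipbl, Esco1, Smc3, Pds5b and Mau2), with the highest value, 6.0, inside Smc3 itself and no SMC3 peak there in any line. The 14 genes had a median span of 46.0 kb and held 3.25 private peaks per Mb of span, below the 4.27 over all genes. Symbols of the ribosomal pattern had one in 13 of 97, and in 9 of 87 without the Rps6k kinases.

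Private peaks were unevenly spread over chromosomes. Chromosome 1 held 1260 (14.3%), or 6.45 per Mb, 1.93 times the density of the whole set, and chromosome 17 held 709 (8.07%), or 7.47 per Mb, 2.24 times. Chromosome 6 held 191, at 0.382 times, and X 108, at 0.190 times. The other chromosomes ran from 0.838 to 1.23 times. Chromosomes 1 and 17 together held 1969 (22.4%). Q418R peaks at CTCF sites were at 0.957 times on chromosome 1, 1.37 on chromosome 17 and 0.731 on chromosome 6. Peaks at CTCF sites in the other lines were at 1.04 to 1.19 times on chromosome 6, all above Q418R. They were at 0.787 to 1.20 times on chromosome 1 and 0.944 to 1.39 on chromosome 17. The private peaks of the other lines had a median of 1.77 times on chromosome 6 (0.626 to 3.27). X was sparse in every list, at 0.259 times for Q418R peaks at CTCF sites, 0.0630 for Q418R SMC3 and 0 to 0.336 for the private peaks of the other lines.

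The SMC3 list of the Q418R line, which the rule did not use, was also uneven. On chromosome 6 its density was 0.535 times that of the whole list, below all 9 other lines (1.29 to 2.15), and on chromosome 17 it was 1.59, above all 9 (1.05 to 1.48); each had an exact two-sided permutation p = 0.100, the smallest possible, not adjusted for the chromosomes looked at, and here too the tag b3 goes with the genotype. On chromosome 1 it was 1.06, within the range of the others (0.568 to 1.52; exact permutation p = 0.500). Across 19 autosomes, which share libraries and depth, the log2 ratio of private FLAG density in Q418R to the median of the other lines and the same ratio for SMC3 had Pearson's r = 0.889 and a Spearman rank correlation of 0.467 as a description, and without chromosome 6 r was 0.695 and the rank correlation 0.373. The same r in the other lines was 0.953 in K365T, 0.945 in R377H, 0.924 in R448Q, 0.833 in H455R, 0.775 in WT, 0.627 in S354F, 0.519 in R339Q, 0.423 in R377C and 0.396 in R342C, so that Q418R lay within their range. Chromosome 17 was also the densest autosome for private peaks in R339Q, at 3.17 times. In other lines private peaks were at 13.2 times on chromosome 8 in H455R, 12.4 times on chromosome 11 in R377H, 5.51 times on chromosome 11 in K365T and 4.48 times on chromosome 1 in R448Q. Copy number was not analysed here, and its part in these densities was not tested.

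**Figure D4:**
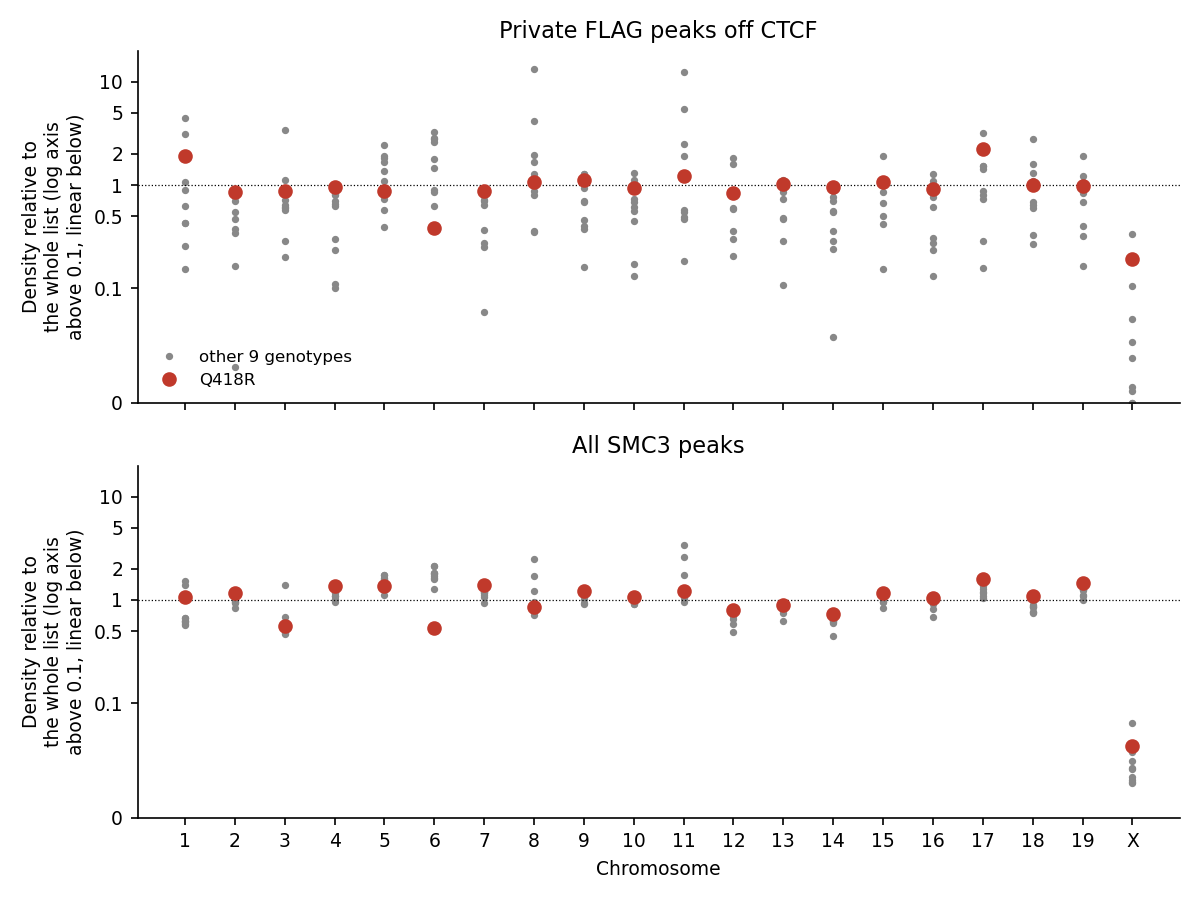
Density of private FLAG peaks (top) and of all SMC3 peaks (bottom) on each chromosome (horizontal axis) relative to the whole list (vertical axis, logarithmic above 0.1 and linear below); red points are Q418R, grey points are the 9 other genotypes, each 1 pooled list, and the dotted line marks 1. In Q418R chromosome 17 is dense and chromosome 6 sparse in both panels, at 2.24 and 0.382 for FLAG and 1.59 and 0.535 for SMC3.

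Within chromosome 17 the private peaks crowded into a stretch from 74 to 90 Mb, chosen after the values were seen. The densest windows of 1 Mb held 51 private peaks from 87 to 88 Mb, around the epithelial adhesion gene Epcam and the calmodulin gene Calm2, 50 from 80 to 81 Mb, around Map4k3 and Sos1, and 38 from 83 to 84 Mb, around Eml4 and Mta3. The genome average was 3.34 per Mb. Of 2639 windows, 18 held at least 20 private peaks, 8 of them on chromosome 17 and 8 on chromosome 1, and 574 held none. Among gene spans, Camkmt, a calmodulin methyltransferase gene, and Map4k3, a kinase gene, both in this stretch, held 16 private peaks each. Cdh13 held 14, St6galnac3 13, Camta1 11 and Slit3, an axon guidance gene, 10.

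The stretch makes up 0.608% of the genome and held 375 private Q418R peaks (4.27%). R339Q had 210 of its private peaks there (8.88%), S354F 16 (3.67%), R377C 31 (2.01%), R377H 11 (1.39%), K365T 13 (1.11%), R342C 11 (1.02%), R448Q 6 (0.329%), H455R 2 (0.189%) and WT 0 of 691. The WT FLAG list had 0 of its 1348 peaks outside CTCF in the stretch and 44 of 14044 (0.313%) at CTCF sites, against 155 of 20256 (0.765%) in Q418R. SMC3 was also sparse there in WT and H455R: the WT line had 52 of 71962 SMC3 peaks there (0.0723%) and H455R 62 of 98168 (0.0632%), while Q418R had 287 (0.683%) and the 7 other lines 0.608% to 0.745%. The Q418R share of SMC3 lay within the range of the 9 others (difference from their mean 0.141 points, exact two-sided permutation p = 0.700). The CTCF antibody lists of the WT line, one of 2 lines with few SMC3 peaks there, had 0.400% treated and 0.381% untreated, and these lists decide what counts as outside CTCF. Private peaks in the stretch had a median value of 2.80, against 2.83 elsewhere, and Q418R SMC3 at 4.00%, against 7.10%. Leaving out chromosomes 1 and 17 altogether left 6815 private peaks and a difference in SMC3 from the shared peaks of -19.8 points (exact permutation p = 0.00195, n = 10 lists). The limit that the rule sets on this comparison holds here too.

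**Figure D5:**
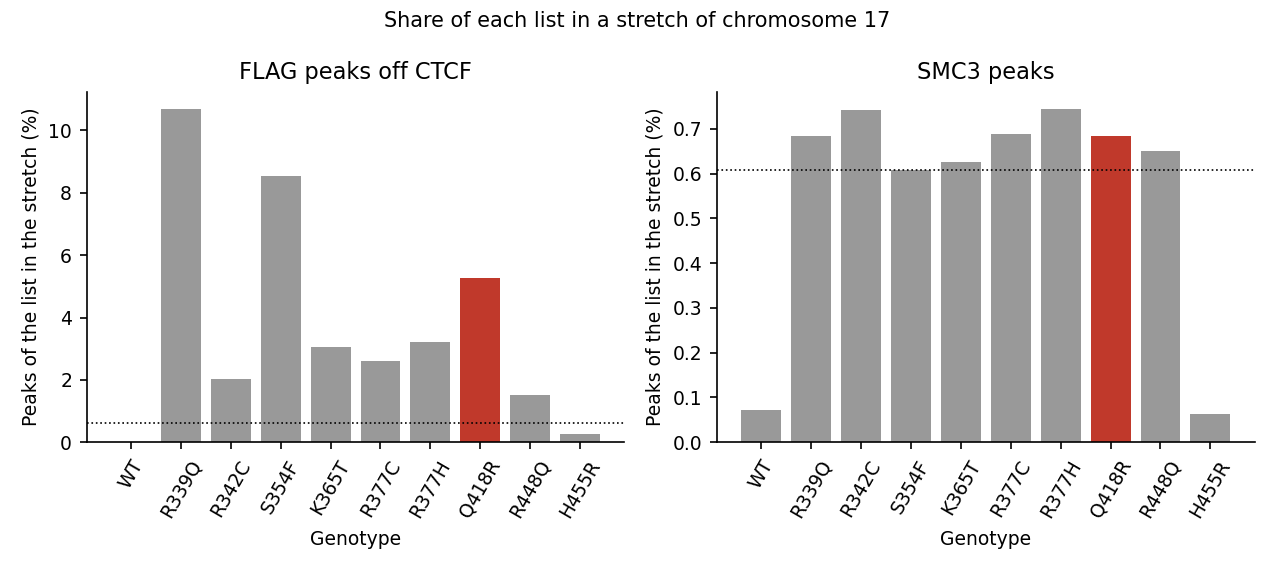
Share of FLAG peaks outside CTCF (left) and of SMC3 peaks (right) that lie in the dense stretch of chromosome 17 (vertical axes, percent, on different scales) in each genotype (horizontal axis); bars are single pooled lists, Q418R in red, and the dotted line marks the share of the genome, 0.608%. WT has 0 FLAG peaks outside CTCF there, and WT and H455R have the fewest SMC3 peaks, at 0.0723% and 0.0632%.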

How the data were processed

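The text rests on 22 peak lists, each pooling 2 replicates of a group that the labels name. Replicate numbers inside most FLAG peak names differ from those in the titles, so each list was assigned by its title. The FLAG and SMC3 lists of Q418R both have 42030 rows, but hold 30332 and 42030 distinct intervals. The submitters' processing notes name mm10, MACS2, Bowtie2, deepTools and Trim Galore, without settings. The value in each list is a score deposited by the authors; which measure it is, and the depth, are unknown, so values were compared only within a list. In the Q418R FLAG list 22.8% of values lie on multiples of 0.156 to within 0.004 of a step, and this step differs between lists. Q418R peak numbers have gaps (1.68% missing), so some calls were dropped before deposition by an unnamed filter.

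Identical intervals, repeated for each summit, were collapsed to the highest value, and an overlap of at least 1 bp counted as shared. The tools were scipy 1.17.1, pandas 2.3.3, numpy 2.4.6 and matplotlib 3.10.9 under Python 3.11.15; bedtools 2.31.1 and simulated lists served as checks of the overlaps. Intervals are 95% Wilson intervals and cover counting error over peaks only. Lines were compared by exact two-sided permutation: sign flips over 10 lists, or 1 list against 9. Genes, and promoter windows (250 bases before to 50 after a start), came from RefSeq GRCm38.p6, with 21627 protein-coding spans. Promoter letters were read on the strand given, which was checked on 1843 overlapping windows of opposite strand. The planned list of histone genes matched no symbol.

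The peaks and gene lists were chosen with earlier results of these data known. Named sites are those of highest value among all private peaks, with Q418R SMC3, with SMC3 in all 10 genotypes, near a gene end and per gene list, the widest, those with most summits, the densest windows and the nearest to the rule's edge; other names were chosen after their values were seen. Some genes that this takes in are not reported here. Alternatives were a reciprocal overlap of 50%, a match within 500 bp, the upper 50% of lists, equal numbers of SMC3 peaks (42030), quartiles of value, lists left out, and other windows (5 and 50 kb). Those without chromosomes 1 and 17, by genome covered, and for the upper 10% were added after seeing the data.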

Additional observations from a re-analysis of the deposited data

How the results depend on the processing

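The number of private peaks was 8784, and 13735 under a reciprocal overlap of 50%, where more overlaps fail to count. It was 2461 in the upper 50% of the Q418R list, which holds fewer peaks. It rose to 12173 when only the upper 50% of each comparison list could exclude. With the treated CTCF antibody list alone in place of both CTCF antibody lists it was 10987. Leaving out each other FLAG list in turn gave 8785 to 8958. The SMC3 difference from shared peaks outside CTCF kept its sign and its side of 0.05 under all alternatives run, from -36.7 to -12.6 points, and ran from -17.8 to -15.9 with each SMC3 list left out. All of these compare classes that the rule itself parts by the FLAG peaks of the other lines. The Q418R SMC3 share against the other 9 lines changed sign to 4.37 points in the upper 50% of the Q418R list, to 1.62 with equal numbers of SMC3 peaks and to 7.75 when divided by the percent of the genome covered; the cause was not tested. In the upper 10% by value Q418R stayed above the other lines, by 9.78 to 40.1 over 6 alternatives, the last on the scale of genome covered. All were run on peaks chosen and ranked through the Q418R FLAG list. The share within 1 kb of a gene end was 10.5%, and 13.3% under a reciprocal overlap of 50%, 9.30% with a match within 500 bp, 9.47% in the upper 50% of the Q418R list, 11.9% with the upper 50% of the other lists and 29.6% within 5 kb. Genes of the lists with a private peak numbered 269 within 10 kb and 578 within 50 kb. No paired analysis was possible because each list pools both replicates. Depth is unknown, so a peak missing from a list may have been missed.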
